A study of Mus musculus with 2 samples.

Results

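The Hox genes encode homeodomain transcription factors that give cells along the head-to-tail axis their positional identity. All gene symbols of the deposited tables that consist of Hox, a cluster letter from a to d and a number were taken, which gave 39 genes of 32285. The question was whether they are transcribed in a cranial joint, in which of its cell types, and at what level in each of the 2 libraries. The data were single-cell RNA-seq libraries of the temporomandibular joint (TMJ), the hinge between the lower jaw and the skull. The sample labels give the strain as C57BL/6 for both libraries. WT was a library from wild-type mice, and the Prox1 mutant was a library from Prox1+/− mice. The latter lack 1 copy of the gene for the transcription factor that specifies lymphatic endothelium. Both groups were female mice of 8 to 10 weeks whose joints had been injected with complete Freund's adjuvant (CFA), an emulsion that causes joint inflammation, and no uninjected joint was analysed here. The number of mice behind each library is not given in the sources used here.

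Mammalian Hox genes lie in 4 clusters, Hoxa to Hoxd, and within a cluster the gene number (the paralog group) follows the order in which the genes are switched on from the hindbrain to the tail. Neural crest cells that build the jaws arise mostly beside brain regions in front of the Hox domains and fill the first pharyngeal arch, and their Hox clusters are kept silent by Polycomb proteins. Blood cells and endothelium have other origins: blood progenitors use Hox genes, Hoxa9 above all, together with the cofactor Meis1, and vessels carry Hox genes according to where in the body they formed.

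With 1 library per group there are no replicates and no test between the groups was possible, so values from both libraries are given side by side. Levels are unique molecular identifiers (UMIs, 1 for each captured transcript) per 1000000 UMIs of the cells named (CPM), with exact Poisson 95% intervals, and all intervals and limits cover counting error only. CPM from this 3′ assay were not divided by gene length. The cell filter (500 genes or more, mitochondrial UMIs below 10%) left 4352 WT cells with 48366846 UMIs and 5757 mutant cells with 54330221 UMIs, at medians of 6997 and 4848 UMIs per cell. Prox1 itself was at 11.6 CPM (WT) and 5.80 CPM (mutant). Of its 563 and 315 UMIs, 258 and 48 lay in the 12 and 5 cells with at least 3 lymphatic markers described below. How far the number of such cells sets these levels was not tested. The libraries shared 10 cell barcodes. Of 43 clusters, 10 stayed unnamed, with 13.7% of WT and 24.2% of mutant cells, and the others took 1 of 19 cell type names from their markers, each given below as "-like". Clustering used no Hox gene, because none was among the 3000 genes chosen for it.

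The Hox family as a whole was rare but present. Its 39 genes together had 626 UMIs in WT (12.9 CPM) and 642 in the mutant (11.8 CPM), found in 406 WT cells (9.33%) and 427 mutant cells (7.42%). Of the 39 genes, 18 had a UMI in both libraries, 7 in 1 library, and 14 in neither, where 0 UMIs allow up to 0.0620 CPM (WT) and 0.0552 CPM (mutant). The share of all 32285 genes with a UMI is not given here, so these counts have no background. The 9 genes with at least 20 UMIs in each library (Hoxa3, Hoxa7, Hoxa9, Hoxb3, Hoxb4, Hoxd3, Hoxd4, Hoxd8 and Hoxd9) held 89.0% of all Hox UMIs in WT and 85.8% in the mutant.

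Most Hox UMIs came from genes at the front and the middle of the clusters. Paralog groups 1 to 5, the hindbrain and neck end, held 56.5% of Hox UMIs in WT and 60.7% in the mutant, and groups 6 to 9, the trunk part, held 42.3% and 38.5%. Groups 10 to 13, the lumbar, tail and distal limb end, held 7 and 5 UMIs, or 1.12% and 0.779%, and 10 of their 12 genes were at 0 in each library. By cluster, WT had 158 Hoxa, 162 Hoxb, 16 Hoxc and 290 Hoxd UMIs, and the mutant had 244, 202, 9 and 187. Hoxc, with 9 genes, had the fewest UMIs in both libraries.

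**Figure D1:**
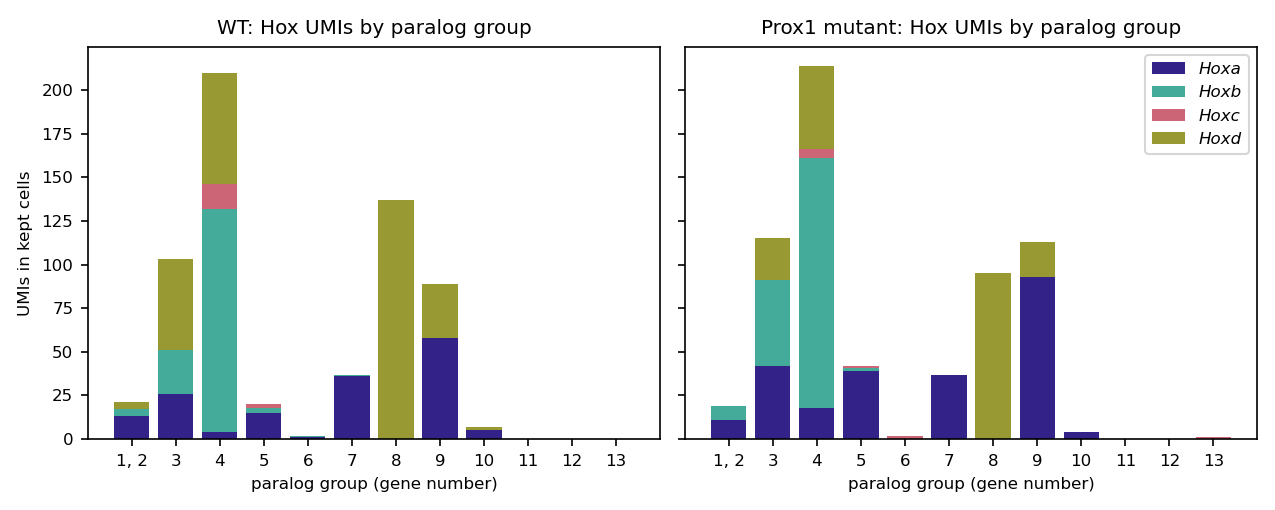
Hox UMIs in kept cells by paralog group (horizontal axis, the gene's number, with groups 1 and 2 in 1 bar) in WT (left) and Prox1 mutant (right), with colours for the 4 clusters. Group 4, mostly Hoxb4 and Hoxd4, was the tallest bar in both libraries, and groups 10 to 13 together held 7 and 5 UMIs.

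The family split by lineage, as the map of genes by cell type shows. In the 8 blood cell types together, the 245 Hox UMIs in WT held 122 of Hoxa and 117 of Hoxb and the 307 in the mutant held 170 and 133, while Hoxd had 2 and 3 UMIs over 1352 and 2709 cells. In endothelial-like cells, 191 of 197 UMIs in WT (97.0%) and 118 of 124 in the mutant (95.2%) were Hoxd. Mural cells, the pericyte-like and smooth muscle-like cells that wrap vessels, held Hoxd for 53.8% and 48.6% of their 39 and 37 Hox UMIs, with Hoxa, Hoxb and Hoxc making up the rest.

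**Figure D2:**
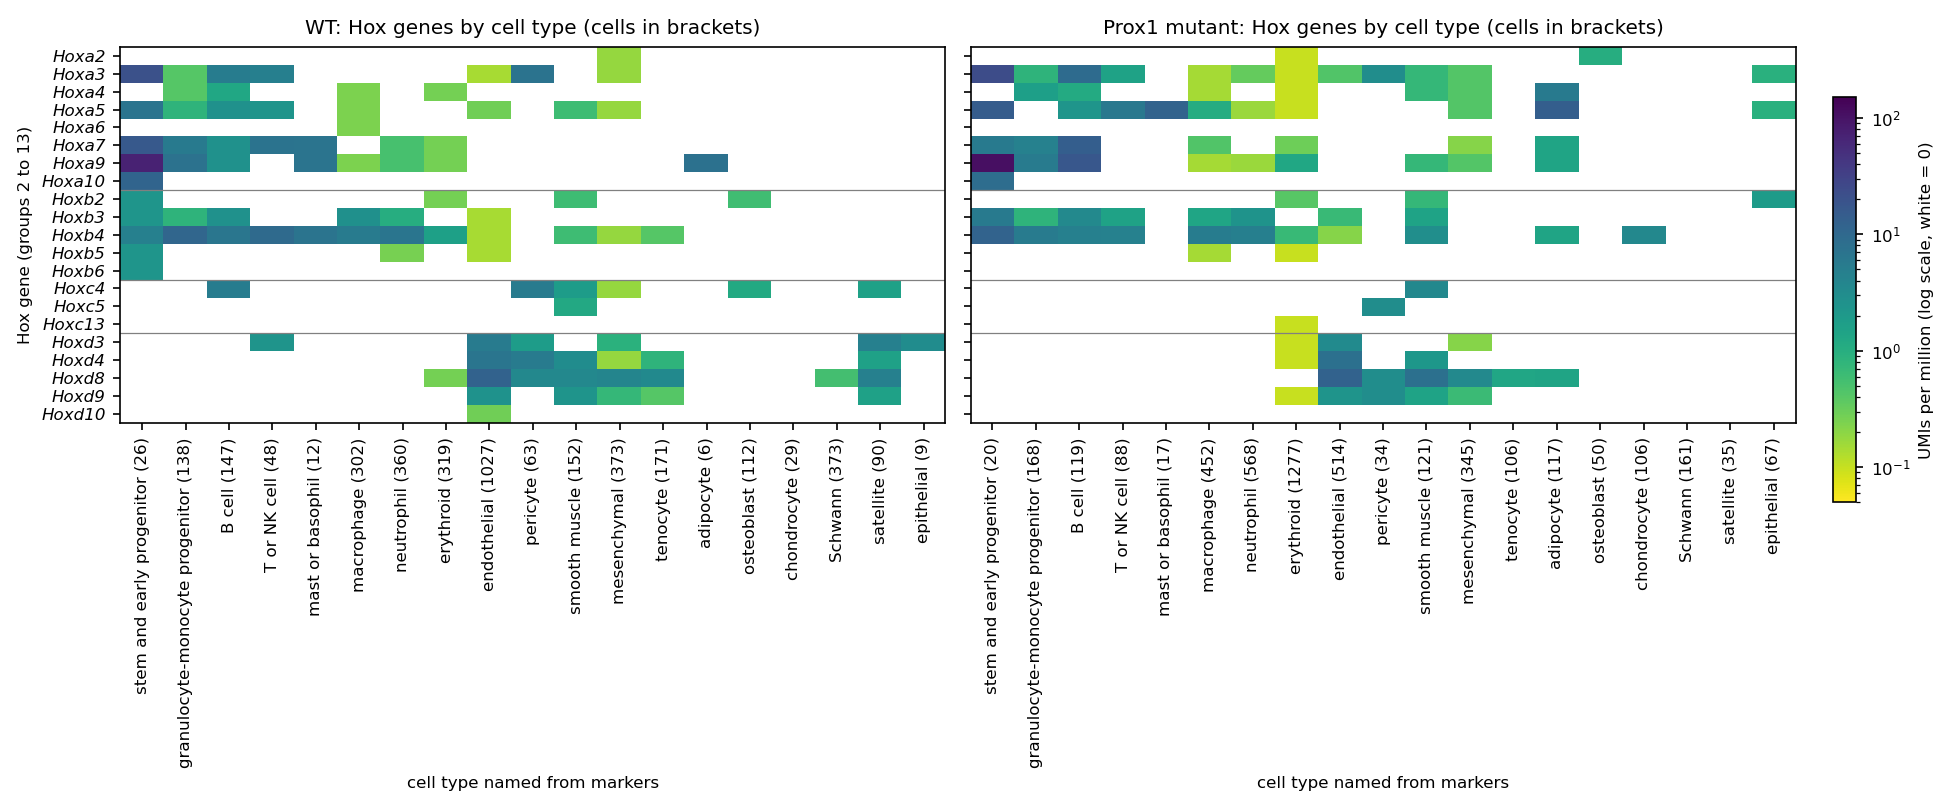
Level of each Hox gene of paralog groups 2 to 13 with at least 1 UMI in a named cell type (rows) in each cell type (columns, cells in brackets), in UMIs per 1000000 UMIs on a log colour scale with white for 0, for WT (left) and Prox1 mutant (right). Hoxa and Hoxb rows filled the blood columns at the left, and Hoxd rows filled the endothelial, mural and mesenchymal columns.

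Because the endothelial signal came from 4 neighbouring genes of 1 cluster, their upstream sequences are shown here, as the 250 bases before the RefSeq start (GRCm38.p6, forward strand, 5′ to 3′). Capitals mark the CCAAT box and the TATA box (letters TATAAA), short promoter elements, on either strand. By coordinate the windows run from Hoxd9 (chr2:74697513-74697762) and Hoxd8 (chr2:74704365-74704614) to Hoxd3 (chr2:74711743-74711992) and Hoxd4 (chr2:74721728-74721977). This is the order of the windows and not of the genes, because the Hoxd3 and Hoxd4 gene models given below overlap. The Hoxd4 window lies inside the Hoxd4 gene model, so its RefSeq start is downstream of the start of that model.
Hoxd9: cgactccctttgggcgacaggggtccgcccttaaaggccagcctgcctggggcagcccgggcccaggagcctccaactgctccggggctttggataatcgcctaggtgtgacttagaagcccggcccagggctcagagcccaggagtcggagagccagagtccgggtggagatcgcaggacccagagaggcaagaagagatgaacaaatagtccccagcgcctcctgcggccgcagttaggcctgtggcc
Hoxd8: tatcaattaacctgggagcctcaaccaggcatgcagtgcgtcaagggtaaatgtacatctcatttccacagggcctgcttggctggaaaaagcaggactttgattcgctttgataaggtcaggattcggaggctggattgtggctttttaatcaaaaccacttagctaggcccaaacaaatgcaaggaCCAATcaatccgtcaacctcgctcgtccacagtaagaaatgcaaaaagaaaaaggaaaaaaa
Hoxd3: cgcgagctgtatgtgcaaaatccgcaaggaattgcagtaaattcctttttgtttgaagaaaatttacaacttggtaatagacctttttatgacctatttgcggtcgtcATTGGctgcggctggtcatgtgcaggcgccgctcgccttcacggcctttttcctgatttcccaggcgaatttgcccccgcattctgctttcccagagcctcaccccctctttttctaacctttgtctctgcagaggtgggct
Hoxd4: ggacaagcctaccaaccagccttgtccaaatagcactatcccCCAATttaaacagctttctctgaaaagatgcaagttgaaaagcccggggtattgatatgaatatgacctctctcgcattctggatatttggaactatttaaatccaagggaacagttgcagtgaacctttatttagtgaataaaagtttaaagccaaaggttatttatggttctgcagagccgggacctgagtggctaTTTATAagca
Hoxd3, Hoxd4 and Hoxd8 each had 1 CCAAT match and Hoxd9 had none, against 33.8% of all 32851 promoter windows of this length and 14 of the 24 Hox windows with at least 1. Hoxd4 alone of the 4 had a TATAAA match, which 12.4% of all windows hold. None of the 4 held TGATTNAT, a PBX-HOX composite motif found in 2.82% of all windows, or TGACAG, a MEIS motif found in 15.9%. CpG dinucleotides numbered 13 in Hoxd9, 12 in Hoxd3, 6 in Hoxd8 and 3 in Hoxd4, against a median of 6 over all windows and 12 over the Hox windows. A window was found for 22 of the 39 genes, and matches describe letters only.

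In endothelial-like cells the Hox level was 27.7 CPM in WT (24.0 to 31.9, 1027 cells) and 26.9 CPM in the mutant (22.4 to 32.1, 514 cells). All 7 endothelial markers were at least 2 times higher there than in the other named types in both libraries. Here and below, a Hox gene counted as detected in a type with at least 3 UMIs in each library, a level that 43.6% of all genes reached in endothelial-like cells. There 4 of the 39 Hox genes reached it, all from Hoxd. Free RNA, estimated from genes that a cell type should lack, would give 0.476 CPM of Hox in WT and 1.27 CPM in mutant endothelial-like cells.

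Hoxd8, which maps to chr2:74704615-74707933 and has been tied to lymphatic vessel identity, had 85 UMIs in 67 WT endothelial-like cells, 11.97 CPM (9.56 to 14.8), and 56 UMIs in 46 mutant cells, 12.2 CPM (9.19 to 15.8). Hoxd4 (chr2:74711929-74729160), a gene of the hindbrain end of its cluster, was at 6.76 CPM (WT) and 7.82 CPM (mutant), from 48 and 36 UMIs. Hoxd3 (chr2:74711927-74748442), known for raising integrins in activated endothelium, was at 5.35 CPM in WT (3.79 to 7.34) and at 3.26 CPM in the mutant (1.82 to 5.37). The intervals of the libraries overlap for each of the 3, so no difference was detectable at this depth. Hoxd9 (chr2:74697727-74700208) was at 2.53 CPM (WT) and 2.39 CPM (mutant), from 18 and 11 UMIs. The Hoxd3 and Hoxd4 gene models overlap on the same strand and share 9.26% and 13.2% of their exon bases, so part of their reads could be assigned to neither or either gene.

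Few endothelial-like cells gave a Hox UMI. A UMI of any Hox gene was seen in 126 of 1027 cells in WT, or 12.3% (10.3 to 14.4), and in 90 of 514 in the mutant, or 17.5% (14.3 to 21.1), and after thinning each cell to 2000 UMIs the shares were 4.71% and 5.46%, with 71 and 1 shallower cells left out. The same thinned share was 0 of 309 in WT and 0 of 146 in mutant Schwann-like cells, whose median depths of 3494 and 4138 UMIs compare with 4546 and 6000.5 in endothelial-like cells. Of the cells with at least 1 of Hoxd3, Hoxd4, Hoxd8 and Hoxd9 (122 in WT and 84 in the mutant), 29 and 15 held 2 or more of these genes. Those 122 and 84 cells were also deeper than the rest, at medians of 10262.5 against 4268 UMIs in WT and 12588 against 5630.5 in the mutant.

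The level varied within the endothelium. The cluster led by Gpihbp1 and Car4, genes of capillaries, was at 14.6 CPM in WT (10.2 to 20.2) and 26.6 CPM in the mutant (18.99 to 36.2). The cluster led by Sema3g and Gja5, genes of arteries, was at 32.8 CPM in WT (25.2 to 41.9) and at 20.4 CPM in the mutant (13.5 to 29.5). In WT the capillary-gene cluster lay below the others and in the mutant the artery-gene cluster was the lowest, with an interval that overlaps that of the capillary-gene cluster, so these clusters changed places between the libraries. The cluster led by Selp and Plvap, genes of venules, had the highest value of the 3 in both libraries, at 36.2 and 32.5 CPM. That lead rested in part on its cells with at least 3 lymphatic markers, described below. Its other cells were at 26.8 CPM in WT (20.8 to 34.0) and 27.8 CPM in the mutant (20.3 to 37.2). In WT this was below the value of the artery-gene cluster, with overlapping intervals. The 2 shallow unnamed clusters led by endothelial genes, numbers 11 and 20 by size, were at 32.3 and 33.1 CPM and at 46.5 and 21.5 CPM. Their Hox UMIs were Hoxd3, Hoxd4, Hoxd8 or Hoxd9 in all cases in WT, while in the mutant number 20 had 1 UMI of each of these 4 genes and 3 of Hoxa genes, among them Hoxa7 and Hoxa9.

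Within the venule-gene cluster sat a small set of cells with lymphatic markers, which were looked at after the values were seen. Endothelial-like cells with at least 3 of the 6 lymphatic markers Prox1, Lyve1, Flt4, Mmrn1, Reln and Ccl21a numbered 12 in WT and 5 in the mutant. Their Hox level was 169 CPM in WT (114 to 241, 30 UMIs) and 102 CPM in the mutant (50.9 to 182, 11 UMIs), all from Hoxd. The other endothelial-like cells were at 24.1 CPM (20.6 to 28.1) and 25.1 CPM (20.7 to 30.2), and these intervals did not overlap those of the lymphatic-marker cells in either library. One cell held 9 of the 30 UMIs in WT and 1 cell 5 of the 11 in the mutant. Without that cell the levels were 139 CPM in WT (86.0 to 212) and 80.2 CPM in the mutant (29.4 to 175), and the mutant interval then overlapped that of the other endothelial-like cells. A Hox UMI was found in 8 of the 12 WT cells and 4 of the 5 mutant cells, at median depths of 6664 and 27974 UMIs.

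Hoxd8 and Hoxd9 made up most of these UMIs. Hoxd9 had 8 UMIs in the 12 WT cells (45.0 CPM) against 2 UMIs in the 746 WT cells without any lymphatic marker (0.497 CPM), and 4 UMIs in the 5 mutant cells (37.0 CPM) against 6 in the 321 without (2.59 CPM). The mutant cell with the most Hox UMIs held 3 of those 4, and without it Hoxd9 was at 13.4 CPM (0.338 to 74.5) in the other 4 cells. Hoxd8 was at 61.8 and 55.6 CPM in the lymphatic-marker cells and at 7.95 and 8.19 CPM in the cells without. Cells with 1 or 2 of the markers lay outside these comparisons. There Hoxd9 was at 2.76 CPM in WT (8 UMIs, 269 cells) and 0.459 CPM in the mutant (1 UMI, 188 cells). Hoxd8 was at 14.5 CPM (WT) and 14.2 CPM (mutant) in the same cells. Hoxd4 was at 33.7 CPM (12.4 to 73.4) in the 12 WT cells and had 0 UMIs (0 to 34.2 CPM) in the 5 mutant cells. These intervals overlap, so the 5 cells are too few to show whether Hoxd4 differed between the libraries. Hoxd10, the only gene of groups 10 to 13 seen in endothelium, had its 2 UMIs in the WT lymphatic-marker cells. These cells held only 15.2% of the endothelial Hox UMIs in WT and 8.87% in the mutant, so most of the Hoxd signal came from cells with fewer than 3 lymphatic markers.

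**Figure D3:**
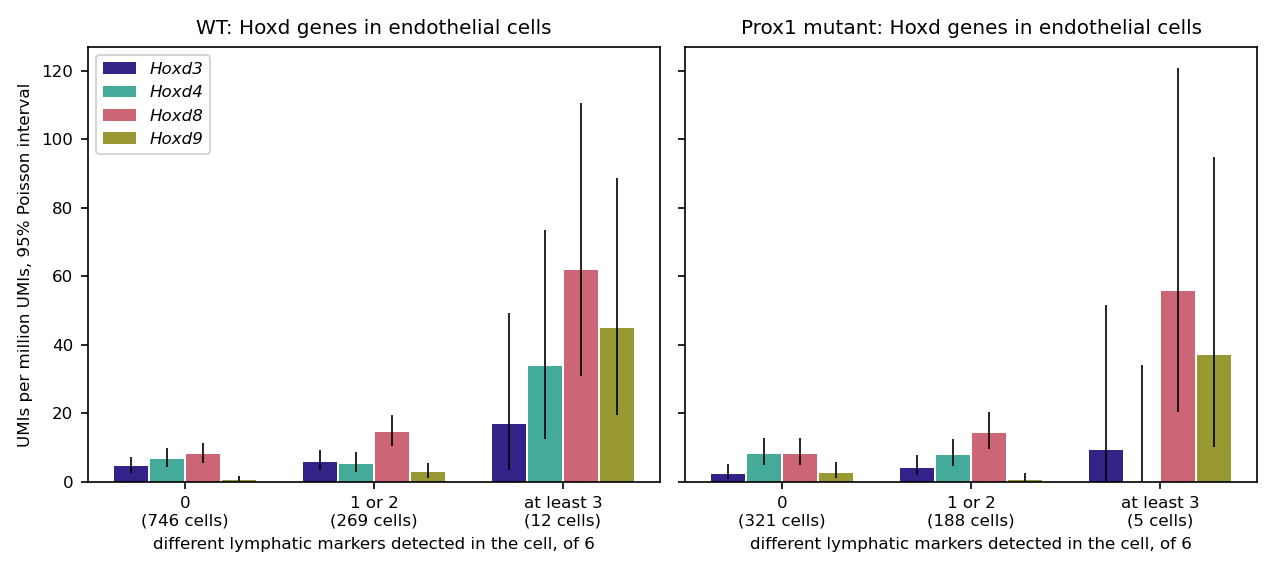
Level of Hoxd3, Hoxd4, Hoxd8 and Hoxd9 in UMIs per 1000000 UMIs (vertical axis, bars with 95% Poisson intervals) in endothelial-like cells grouped by how many of 6 lymphatic markers they held, for WT (left) and Prox1 mutant (right). In the cells with at least 3 markers (12 and 5 cells), Hoxd8 reached 61.8 and 55.6 and Hoxd9 45.0 and 37.0. Hoxd4 had 0 UMIs in the 5 mutant cells, with an interval of 0 to 34.2.

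In blood the level was highest in the stem and early progenitor-like cells, a cluster of 26 WT and 20 mutant cells in which 3 and 5 of 6 stem cell markers were at least 2 times higher than elsewhere. Their Hox level was 138 CPM in WT (105 to 177) and 179 CPM in the mutant (137 to 229), which was 4.96 times (3.65 to 6.66) and 6.65 times (4.82 to 9.09) the endothelial level. Hoxa9 (chr6:52223100-52231089), which maintains haematopoietic stem cells, made up 30 of 60 Hox UMIs in WT and 38 of 62 in the mutant, or 68.9 and 110 CPM. One mutant cell held 18 of the 38 Hoxa9 UMIs and 21 of the 62 Hox UMIs. Detected were 4 of the 39 genes, Hoxa3 (chr6:52169062-52213336), Hoxa5, Hoxa9 and Hoxa10, against 26.7% of all genes. Hoxa10, which acts beside Hoxa9 in progenitors, had 5 and 3 UMIs in these cells and none in any other named type. This cluster took its name only at the main clustering setting and from markers alone.

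The level was lower in more mature myeloid cells, where Hoxb4, known for expanding blood stem cells, was level with or above Hoxa9. Granulocyte-monocyte progenitor-like cells were at 26.1 CPM in WT (20.1 to 33.4) and 18.3 CPM in the mutant (13.4 to 24.5), with 3 genes detected against 36.6% of all genes. Hoxb4 (chr11:96318267-96321638) had 26 and 13 UMIs there, Hoxa9 18 and 13, and Hoxa7 (chr6:52214491-52221854), a trunk gene also active in blood progenitors, 14 and 11. Neutrophil-like cells were at 9.29 and 8.09 CPM, and Hoxb4 made up 26 of 36 and 29 of 49 of their UMIs. The immature neutrophil-like cluster led by Camp and Ngp, genes of granule proteins, was at 10.3 CPM in WT (6.08 to 16.2) and at 9.77 CPM in the mutant (6.26 to 14.5). In the mature cluster with Cxcr2, the receptor that brings neutrophils out of marrow, it was 1.45 CPM (0.0367 to 8.07) and 4.87 CPM (1.58 to 11.4), intervals that overlap those of the immature cluster.

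Macrophage-like cells kept a low level of Hoxb4. Their Hox level was 9.19 CPM in WT (6.51 to 12.6) and 8.92 CPM in the mutant (6.81 to 11.5), with Hoxb4 at 5.32 and 5.21 CPM and Hoxb3 (chr11:96323326-96347930), its neighbour, at 2.66 and 1.34 CPM. These were the 2 genes detected, against 39.7% of all genes, and the same pair was detected in neutrophil-like cells, against 40.4%. The unnamed cluster led by Mmp12 and Spp1, genes of activated macrophages, had 31 and 32 Hoxb4 UMIs, or 3.67 and 4.98 CPM. Endothelial and mesenchymal markers put the share of free RNA in macrophage-like cells at 1.52% and 3.78% of the level in the whole library, which would give 0.196 and 0.447 CPM of Hox.

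Erythroid-like cells, the red cell precursors, had 2.89 CPM in WT (1.44 to 5.18) and 3.55 CPM in the mutant (2.49 to 4.92), led by Hoxb4 (6 UMIs) in WT and by Hoxa9 (13 UMIs) in the mutant. Stem cell markers were at 325 CPM in the 9 WT erythroid-like cells with a Hox UMI against 76.3 CPM in the rest, and at 119 against 61.2 CPM in the mutant. In WT, 1 of these 9 cells held 3 or more of the marker UMIs, against 18 of the other 310. Most of the 86 marker UMIs of the 9 cells therefore came from that 1 cell. In the mutant, 4 of 29 cells with a Hox UMI held 3 or more, against 50 of 1248. B cell-like cells were at 28.3 CPM in WT (17.7 to 42.8) and 51.3 CPM in the mutant (37.4 to 68.6), with 2 genes detected (Hoxa3 and Hoxb4) against 31.4% of all genes. Mutant B cell-like cells had 15 Hoxa9 and 12 Hoxa7 UMIs, where WT had 2 and 2. In the 16 mutant B cell-like cells with a Hoxa UMI, stem cell markers were at 323 CPM (73 UMIs) against 21.5 CPM in the other 103, and 1 cell with 7 Hox UMIs held 41 of the 73. In the 11 WT cells with a Hoxa UMI they were at 12.6 CPM, and the part of such cells in the difference between the libraries was not tested. T or NK cell-like cells had 11 Hox UMIs in WT and 9 in the mutant, of which 6 and 3 came from 1 cell. A small unnamed cluster led by Siglech and Ccr9, genes of plasmacytoid dendritic cells, was at 59.5 CPM (27.2 to 113) and 41.3 CPM (18.9 to 78.4) from 9 UMIs in each library. Hoxa3 had 3 of them in WT and 4 in the mutant, and Hoxa7 had 5 and 1.

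**Figure D4:**
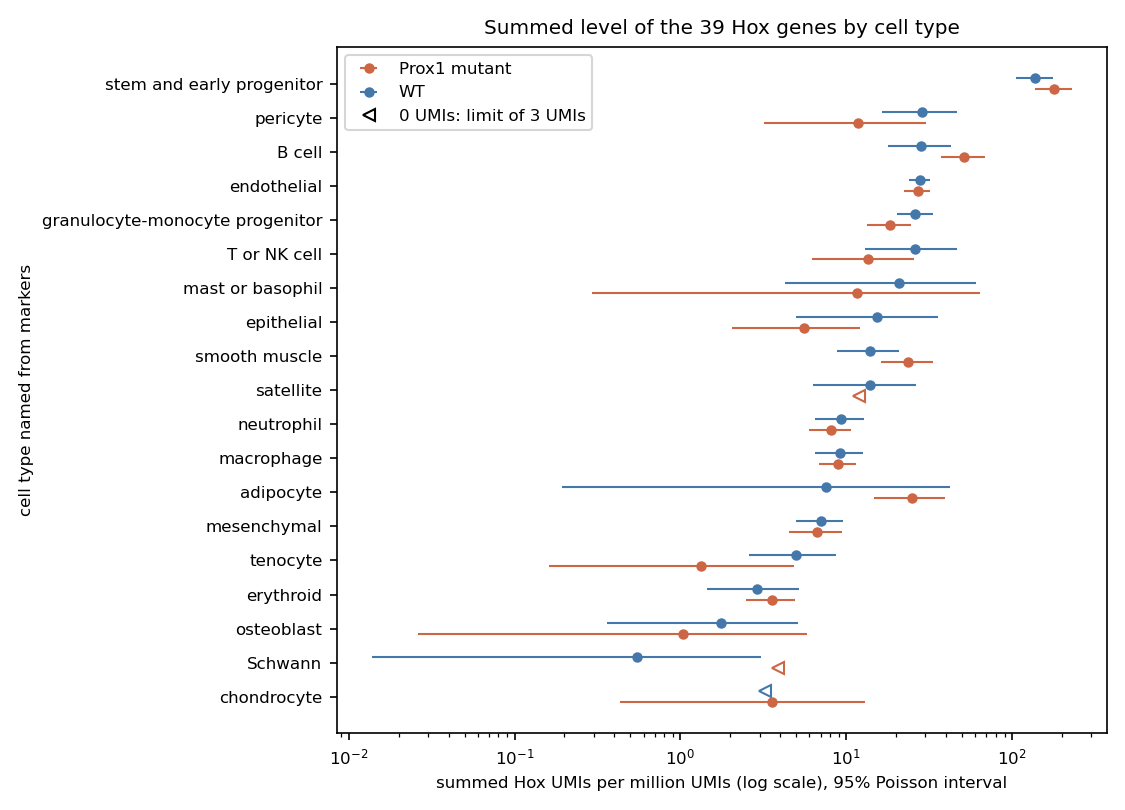
Summed level of the 39 Hox genes in UMIs per 1000000 UMIs (horizontal axis, log scale, points with 95% Poisson intervals) by cell type in WT and Prox1 mutant, with open triangles at the limit of 3 UMIs where none was found. The stem and early progenitor-like cells lay highest at 138 and 179, and Schwann-like, chondrocyte-like and osteoblast-like cells were among the lowest.

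The stroma of the joint, for which the question of silent Hox clusters was raised, was low but not at 0. Whether these cells came from neural crest was not tested. Mesenchymal-like cells, the fibroblasts that express Pi16 and Prg4, had 39 Hox UMIs in WT, 7.03 CPM (4.996 to 9.61, 373 cells), and 31 in the mutant, 6.62 CPM (4.50 to 9.39, 345 cells). The endothelial level was 3.95 times as high in WT (2.79 to 5.72) and 4.07 times as high in the mutant (2.73 to 6.24). Hoxd8 made up 22 of the 39 and 16 of the 31 UMIs, 3.96 CPM (2.48 to 6.00) and 3.42 CPM (1.95 to 5.55), and with Hoxd9 it was 1 of 2 genes detected, against 44.5% of all genes.

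Endothelial markers were counted beside this stromal Hoxd8. In the 20 WT mesenchymal-like cells with a Hoxd8 UMI the 7 endothelial markers had 4 UMIs, 11.3 CPM (3.09 to 29.1), and in the other 353 they were at 22.5 CPM (18.6 to 27.0). In the mutant they were at 69.7 CPM (43.7 to 105) in 10 cells and 67.7 CPM (60.2 to 75.9) in 335, and the intervals overlap in both libraries. Without cells holding 3 or more endothelial marker UMIs the level was 7.38 CPM (WT) and 6.22 CPM (mutant). Free RNA, judged from haemoglobin and neutrophil genes, would give 0.983 CPM (WT) and 2.33 CPM (mutant). A Hox UMI was seen in 8.58% of WT and 5.51% of mutant cells, at median depths of 12796 and 8321 UMIs, and after thinning in 0.840% and 1.76%. The mutant cells included 112 of a shallow cluster led by Igha, an antibody gene, and without clusters of mostly 1 library the mutant level was 6.21 CPM.

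Other stromal types were lower or rested on few cells. Tenocyte-like cells had 12 UMIs in WT, 4.98 CPM (2.58 to 8.71), of which 8 were Hoxd8, and 2 in the mutant, 1.33 CPM (0.161 to 4.81), both Hoxd8. Osteoblast-like cells had 3 and 1 UMIs, 1.76 CPM (0.363 to 5.14) and 1.03 CPM (0.0262 to 5.76), with Hoxc4 2 times and Hoxb2 once in WT and Hoxa2 in the mutant. Chondrocyte-like cells had 0 UMIs in WT, which allows up to 3.22 CPM, and 2 in the mutant, both Hoxb4 from 1 cell, at 3.57 CPM. The free RNA estimate there, 11.6 CPM, was above the level seen and close to the 11.8 CPM of all kept mutant cells. It therefore does not show where the 2 UMIs came from, which was not tested. In adipocyte-like cells, Hoxa5, a gene linked to fat cell identity, had 10 UMIs among 117 mutant cells, and the 6 WT cells had 1 UMI of Hoxa9. The Hox level of the mutant adipocyte-like cells was 24.8 CPM (14.7 to 39.2), where free RNA would give 8.16 CPM.

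Schwann-like cells, the glia of peripheral nerves, were among the types with the lowest values. They had 1 Hox UMI, of Hoxd8, in 373 WT cells, 0.546 CPM (0.0138 to 3.04). In 161 mutant cells they had 0 (interval 0 to 4.76 CPM), with 3.87 CPM as the limit of 3 UMIs. The mutant endothelial level was 6.95 times this limit of 3 UMIs, a ratio without an interval. In WT the endothelial level was 50.8 times the Schwann-like level (9.01 to 2017). All 8 Schwann markers were raised. Satellite-like cells, the muscle stem cells, had 9 UMIs in 90 WT cells and 0 in 35 mutant cells. One WT cell held 6 of these 9, with Hoxd3, Hoxd4 and Hoxd8 together, and the same cell held 75 endothelial marker UMIs.

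The mural types held a mixture of clusters. Smooth muscle-like cells were at 13.9 CPM in WT (8.80 to 20.8) and 23.6 CPM in the mutant (16.2 to 33.1), with Hoxc4, Hoxd4 and Hoxd8 detected against 36.7% of all genes, the only type in which a Hoxc gene was. Hoxd8 had 6 and 11 UMIs there and Hoxc4, a gene of the neck end of its cluster, 3 and 5. In WT smooth muscle-like cells with a Hoxd UMI the endothelial markers were at 812.5 CPM against 368 in the rest, and in the mutant at 33.1 against 253, so they were higher beside Hoxd in WT and lower in the mutant. Free RNA would give 3.19 and 2.11 CPM there. Pericyte-like cells were at 28.6 CPM in WT (16.4 to 46.5) from 16 UMIs and at 11.8 CPM in the mutant (3.20 to 30.1) from 4. In WT the 10 pericyte-like cells with a Hox UMI carried endothelial markers at 1431 CPM against 451 in the other 53. In the mutant they were at 0 CPM (0 to 156) in the 2 cells with a Hox UMI against 243 CPM in the other 32, the opposite direction. Without cells holding 3 or more endothelial marker UMIs the WT Hox level was 16.3 CPM. The part of such cells in these levels was not tested.

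Ratios of the mutant to the WT library were formed where a gene had at least 20 UMIs over both libraries, which gave 12 pairs of gene and cell type. The interval of each of these 12 ratios held 0, and the share of all genes for which this was so is not given here. Only Hoxb4 in granulocyte-monocyte progenitor-like cells passed 2-fold, at a log2 ratio of mutant over WT of -1.003 with a 95% counting interval of -2.09 to 0.01, where 8.67% of all genes with as many UMIs passed 2-fold. In endothelial-like cells none of the 4 Hoxd genes did, against 6.91% of all genes, nor did Hoxd8 in mesenchymal-like cells (7.55%), Hoxb3 and Hoxb4 in macrophage-like cells (8.09%), Hoxb4 in neutrophil-like cells (9.03%) or Hoxa9 in stem and early progenitor-like cells (10.7%). In endothelial-like cells the log2 ratios were 0.02 for Hoxd8, 0.21 for Hoxd4, -0.09 for Hoxd9 and -0.72 for Hoxd3, with a median of -0.03 against 0.04 over all genes. For Hoxd8 the interval ran from -0.49 to 0.53, so a change of 2-fold was outside it, while for Hoxd3 it ran from -1.68 to 0.18. Pairs with at least 10 UMIs were looked at after the values were seen. The intervals of the libraries did not overlap for 1 pair alone, Hoxa9 in B cell-like cells. It was at 2.57 CPM in WT (0.312 to 9.29) and at 17.1 CPM in the mutant (9.57 to 28.2). It was 1 of 3 Hox genes with as many UMIs in that type, where intervals did not overlap for 17.5% of all such genes. In endothelial-like cells this held for 0 of 4 Hox genes, against 21.2% of all genes. For granulocyte-monocyte progenitor-like cells it was 0 of 3 (23.2%). It was 0 of 2 in erythroid-like (22.9%), neutrophil-like (22.3%), macrophage-like (21.6%) and stem and early progenitor-like cells (6.42%). It was 0 of 1 in mesenchymal-like (17.9%), tenocyte-like (13.5%), smooth muscle-like (10.3%) and adipocyte-like cells (8.88%). No other type had a Hox gene with as many UMIs.

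For the summed family the interval of the ratio left out 0 in 1 of 11 types. That was the B cell-like type, at 0.86 (0.09 to 1.66), and with predicted doublets removed the ratio was 0.73 (-0.08 to 1.57), with the libraries merged without integration it was 0.23 (-0.62 to 1.10), and from markers alone 0.52 (-0.30 to 1.37). The endothelial ratio was -0.04 (-0.38 to 0.29), the mesenchymal ratio -0.09 (-0.82 to 0.63) and the stem and early progenitor ratio 0.38 (-0.16 to 0.92). From markers alone the stem and early progenitor ratio was -0.29 and the neutrophil ratio 0.57 in place of -0.20, and in cells with at least 1000 genes the smooth muscle ratio was -0.077 in place of 0.76. Pericyte-like cells alone passed 2-fold, at -1.28 (-3.32 to 0.35), where 12.5% of all genes with at least 20 UMIs did. The family sum stayed within 2-fold in the other 10 types, among them the B cell-like, T or NK cell-like, erythroid-like and smooth muscle-like cells, in which 16.2%, 14.8%, 14.4% and 7.26% of all genes passed it. Genotype and library cannot be told apart here.

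**Figure D5:**
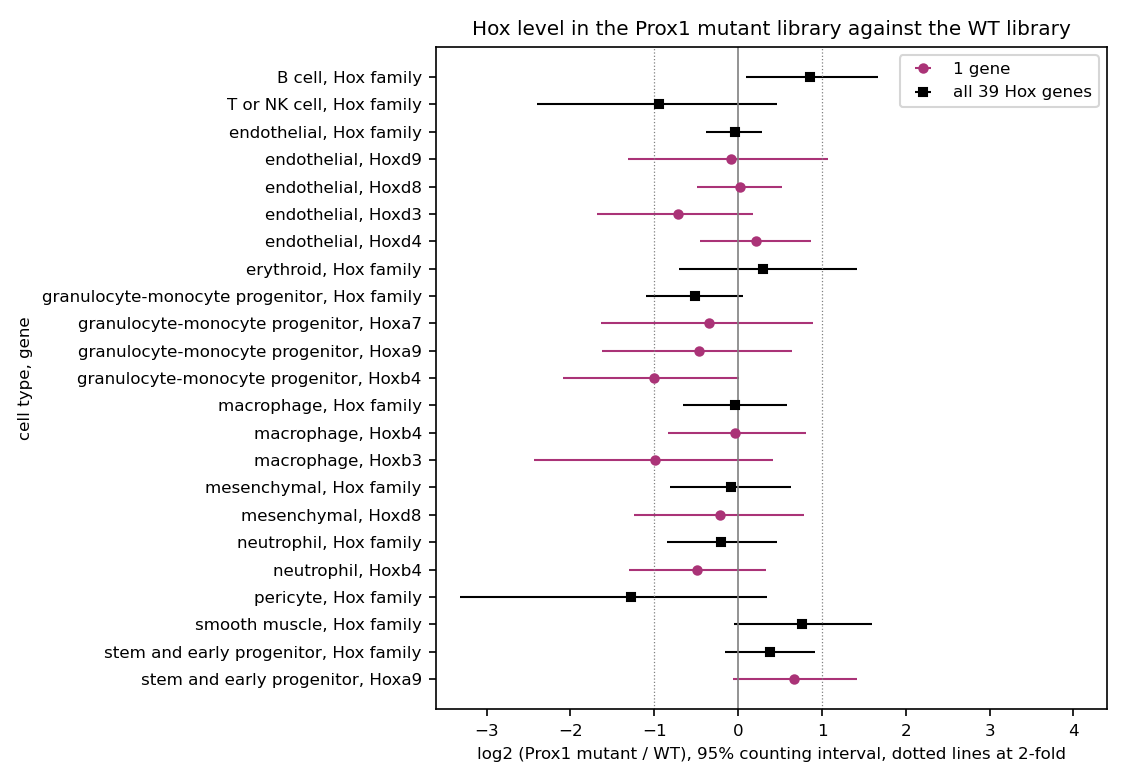
Log2 ratio of the Prox1 mutant over the WT library (horizontal axis, points with 95% counting intervals, dotted lines at 2-fold) for the summed family (squares) and for genes with at least 20 UMIs (circles) in each cell type (vertical axis). All intervals but that of the B cell-like family sum cross 0.

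The partners of Hox proteins were detected in types with and without detected Hox genes. The 9 TALE homeodomain cofactors, which bind DNA together with Hox proteins, were all detected in mesenchymal-like cells, 8 of 9 in Schwann-like cells, 7 of 9 in endothelial-like cells and 6 of 9 in stem and early progenitor-like cells, where 44.5%, 35.9%, 43.6% and 26.7% of all genes were detected. These shares also apply to the lists that follow. Meis1 was at 796 and 1227 CPM in the stem and early progenitor-like cells and at 1.69 and 3.69 CPM in endothelial-like cells. Meis2 was at 133 and 181 CPM in mesenchymal-like cells and had 0 UMIs in the stem and early progenitor-like cells of both libraries. Meis1 was among the 10 leading genes of the stem and early progenitor-like cluster, so its level there is a description of the cluster.

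Regulators of the first arch and the cranial skeleton differed in number among the skeletal and connective types. Of 24 such genes, 16 were detected in mesenchymal-like cells, 19 in osteoblast-like cells (38.2% of all genes), 14 in tenocyte-like cells (38.3%), 9 in chondrocyte-like cells (30.1%) and 4 in adipocyte-like cells (19.1%). There were 9 in both pericyte-like (28.8%) and smooth muscle-like cells (36.7%), 5 in endothelial-like cells, 3 in Schwann-like cells and 0 in stem and early progenitor-like cells. Prrx1, needed for jaw and limb skeleton, was at 921 and 1047 CPM in mesenchymal-like cells. All 17 Polycomb and Trithorax genes, whose products keep Hox clusters silent or active, were detected in endothelial-like, mesenchymal-like and Schwann-like cells alike. Of 11 genes of the retinoic acid pathway, the signal that opens the front of Hox clusters in embryos, 10 were detected in mesenchymal-like, 7 in endothelial-like and 5 in Schwann-like cells. Of 9 genes listed as regulators of limbs and trunk, 5 were detected in mesenchymal-like cells and 1 in endothelial-like cells. Tbx15 led in mesenchymal-like cells, at 128 and 156 CPM. The count does not show a limb or trunk identity of these cells, which was not tested.

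Genes inside and beside the clusters did not share one pattern. Of 11 genes that flank the clusters, 8 were detected in both endothelial-like and mesenchymal-like cells, among them Skap2 and Snx10 on the outer side of Hoxa, at 138 and 153 CPM and at 100.2 and 95.6 CPM in endothelial-like cells. Of 10 noncoding RNAs of the clusters, 1 was detected in each of these types. In endothelial-like cells it was Hoxd3os1, antisense to Hoxd3, Hoxd4 and Hoxd8, at 5.91 CPM in WT (4.26 to 7.99) and at 9.34 CPM in the mutant (6.76 to 12.6). In mesenchymal-like cells it was Hotairm1, at 3.78 CPM (2.34 to 5.78) and 2.35 CPM (1.17 to 4.20). Hotairm1 was also the noncoding RNA detected in macrophage-like cells, at 3.14 and 3.12 CPM. Antisense genes overlap 14 of the 39 Hox genes, and whether the counting used strand is not given in the sources used here.

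In T or NK cell-like and erythroid-like cells Hoxb4 was the 1 gene detected, against 28.3% and 38.4% of all genes. No Hox gene was detected in Schwann-like cells (35.9% of all genes), osteoblast-like cells (38.2%), chondrocyte-like cells (30.1%), tenocyte-like cells (38.3%), satellite-like cells (25.7%), pericyte-like cells (28.8%), adipocyte-like cells (19.1%), epithelial-like cells (29.5%) or mast or basophil-like cells (12.0%). The last group held 12 WT and 17 mutant cells with 3 and 1 Hox UMIs.

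The genes below 20 UMIs in a library were spread over many types or held to 1. Hoxa4, Hoxa5 and Hoxb2 had 4 to 39 UMIs per library over many types, while Hoxa10 was seen above in 1 named type and Hoxd1 had 4 UMIs, all in epithelial-like cells of WT, 3 of them in 1 cell. Hoxc13 had 1 UMI, in an erythroid-like cell of the mutant, and Hoxd11, Hoxd12, Hoxd13, Hoxa11 and Hoxa13, the genes of the distal limb, had none in either library. Hoxa3 spans Hoxa4, Hoxa5 and Hoxa6 on the same strand, and 11 of the 39 genes overlap a neighbour in this way, so levels of single genes in these stretches are less certain than their sums.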

How the data were processed

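The data were 2 single-cell RNA-seq libraries of the TMJ. The authors deposited UMI counts per gene and barcode, made with Cell Ranger 7.0.1 and mm10 per the submitters' processing notes, and whether intronic or antisense reads were counted is not given in the sources used here. The members and lists were chosen with earlier results of these data known.

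Barcodes with 500 genes or more and mitochondrial UMIs below 10% were kept, normalised with sctransform 0.4.2, integrated in Seurat 5.3.0 (R 4.3.3) on 3000 genes and 200 principal components and clustered at resolution 1.5. A cluster was named where at least 3 markers of a type had CPM + 5 at least 2 times that of the other cells and a UMI in at least 10% of its cells, unless markers of another lineage led its top 10 genes or its median depth was low and its own markers were absent there. Doublets were scored with scanpy 1.11.5, whose automatic threshold called 0 cells. They were kept, and 239 WT and 462 mutant cells with the highest scores were removed as an alternative.

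Counts were summed by library and cell type in Python 3.11.15 with numpy 2.4.6 and pandas 2.3.3, and figures were drawn with matplotlib 3.10.9. Intervals at 95% came from scipy 1.17.1: exact Poisson for CPM, Clopper-Pearson for shares and conditional binomial for ratios. No test was run, because each group was 1 library. Free RNA was estimated from UMIs of genes that a type should lack, relative to the whole library, multiplied by the library's Hox CPM. A Hox gene was described on its own with at least 20 UMIs in each library. Other Hox genes named in a cell type, the split by lymphatic markers and the comparison of intervals at 10 UMIs were chosen after their values were seen. Genes of the other lists were the highest in the type described, or Meis1 and Meis2. Some members and cofactors are counted in sums but not reported here singly. Alternatives changed the cell filter, doublets, integration, resolution, naming, free RNA, thinning and thresholds. Gene coordinates are GRCm38. Imaging and behaviour were not analysed here.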

Additional observations from a re-analysis of the deposited data

Results flagged for a closer look

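A Hox signal lay in barcodes that no comparison used. The 1357 WT and 2089 mutant barcodes left out by the cell filters held 22 and 37 Hox UMIs, or 4.27 CPM (2.68 to 6.47) and 4.56 CPM (3.21 to 6.28), above the limit that a count of 0 allows and below the 12.9 and 11.8 CPM of the kept cells. What these barcodes hold was not tested.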

How the results depend on the processing

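No paired analysis was possible because each group was 1 library and the labels give no replicate numbers. The order stem and early progenitor, endothelial, mesenchymal, Schwann held in 12 of 12 combinations of setting and library in which its types were named. The main setting is among them. Only markers alone named the cells anew, and the others kept the main clusters and names. The order could not be examined in any setting that clustered the cells again, because the stem and early progenitor type took no name there. The ratio whose interval left out 0, in B cells, kept its sign in each setting. The stem and early progenitor type took no name with cells of 200 or 1000 genes, with doublets removed, with libraries merged or at resolution 0.5, and the pericyte type took none with 1000 genes or at resolution 0.5. With 1000 genes and 5% mitochondrial UMIs the level was 13.1 CPM in mutant progenitors (granulocyte-monocyte), 25.5 in WT smooth muscle and 0 in WT Schwann, and the smooth muscle log2 ratio changed sign to -0.077. At resolution 0.5 the progenitors were at 41.9 (WT) and 38.1 (mutant) CPM and WT macrophages at 6.41. From markers alone the CPM were 37.0 in mutant B cells, 44.7 in WT progenitors, 5.57 in mutant macrophages, 11.6 in mutant neutrophils, 13.9 in WT pericytes and 213 in WT stem cells. There the log2 ratios were -1.22 for progenitors, 0.57 for neutrophils and -0.29 for stem cells, the last pair with the sign changed, and 0 genes were detected in progenitors and 2 in stem cells. Mutant B cells were at 30.6 CPM with libraries merged and WT progenitors at 33.7 with doublets removed. With free RNA subtracted, mutant mesenchymal cells were at 4.29 and WT Schwann cells at 0. Without the cell with the most Hox UMIs, WT Schwann cells were at 0 and mutant pericytes at 3.09. Chosen after seeing the data, leaving out cells with endothelial markers gave 16.3 in WT pericytes. At 1 UMI per library the detected genes were 7 in B, endothelial and stem cells, 6 in progenitors, macrophages, mesenchymal and smooth muscle cells, 4 in neutrophils and 2 in pericytes. At 10 UMIs they were 0 in B and smooth muscle cells and 1 in macrophages, mesenchymal cells, neutrophils and stem cells. The shares of all genes given above are for 3 UMIs in the main setting. They do not apply to these counts or to those from markers alone. Shares of cells with a Hox UMI were 12.3% (WT) and 17.5% (mutant) in endothelium unthinned, 1.75% and 2.53% at 1000 UMIs and 8.497% and 7.87% at 4000. Unthinned they were 8.58% and 5.51% in mesenchymal cells and 69.2% in WT stem cells. At 4000 UMIs WT mesenchymal cells had 2.5% and WT stem cells 50%, and at 1000 UMIs mutant stem cells had 5%. The causes were not tested. Types with few cells, and genes with few UMIs, are limited by depth.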
